A study of Mus musculus with 27 samples.

Results

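The p53 pathway was followed through 37 named genes among the 24062 gene symbols of a mouse RNA sequencing count table. They were taken by symbol from a list of p53, its regulators and its arrest, apoptosis and repair targets. That list was drawn up with earlier results of these data known. All 37 were in the table, and all 37 passed the filter on low counts in every fit. By role they were 5 genes for p53 and its regulators, 7 for arrest, 13 for apoptosis, 6 for repair, and 6 for metabolism and stress.

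The study compared cells and lungs of C57BL/6 mice whose Foxm1 was altered, Foxm1 being a forkhead transcription factor of the G2 phase and mitosis. Of 9 groups with 3 libraries each, experiment 1 held mouse embryonic fibroblasts labelled KO, KO-NTD and WT. Experiment 2 held fibroblasts labelled Het, Het-NTD, WT-NTD and WT, and the last groups were whole lungs of animals aged 10 days, labelled Het and WT. The fibroblasts, primary cells grown out of embryos, were of early passage, were growing asynchronously and were taken at about 90% confluence. The labels leave unstated how Foxm1 was changed, what NTD is, how it was introduced, whether a Cre was used, and whether the libraries of a group came from separate embryos or animals. P-values therefore measure only the spread between these libraries.

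The p53 protein is a transcription factor that is made all the time and degraded almost as fast, because Mdm2 marks it for destruction and Mdm4 holds it inactive. DNA damage and other stresses free p53 from both, and it then switches on genes that stop the cell cycle, repair DNA, change metabolism or kill the cell. Mdm2 is itself one of these genes, which closes a feedback loop, and cultured embryonic fibroblasts are known for a p53 response to culture stress. Because p53 is controlled mainly at the protein level, its own transcript is not a measure of its activity.

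Total counts were 29730693 to 69517834 per library, of which the 37 genes took 0.163 to 0.312%. Levels are given as CPM, which are counts scaled to a common library size by TMM, a method that equalises libraries on the bulk of their genes. A gene was called higher or lower where its adjusted p was below 0.05 in edgeR's quasi-likelihood test, adjusted by the Benjamini-Hochberg method over all genes tested. Foxm1 itself averaged 146 CPM with an SD of 6.64 in KO libraries, against 136 CPM with an SD of 3.34 in WT (n = 3 each, edgeR adjusted p = 0.565), so the KO label has no check in a lower Foxm1 count. In experiment 2 its mean was 129 CPM with an SD of 2.63 in Het, against 147 CPM with an SD of 1.99 in WT (edgeR adjusted p = 0.249, and 0.0274 with these 2 groups fitted alone). Foxm1 was higher in every NTD group, with log2 fold changes of 1.31 in KO-NTD against KO, 1.42 in Het-NTD against Het and 1.24 in WT-NTD against WT (edgeR adjusted p of 1.8e-04, 3.4e-04 and 0.00137). Counts were not split by exon, and the groups are called as they are labelled.

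Macrophage transcripts differed between the fibroblast cultures and are given here because they run alongside several of the comparisons. The summed level of 14 macrophage genes, among them Csf1r and Cd68, was 12.4, 388 and 266 CPM in the 3 KO libraries, 34.6, 10.2 and 285 CPM in KO-NTD, and 95.2, 56.9 and 75.0 CPM in WT of experiment 1. In experiment 2 the sums were 70.4, 11.6 and 28.0 CPM in Het, 17.1, 12.3 and 17.2 CPM in Het-NTD, 169, 71.3 and 92.1 CPM in WT-NTD, and 187, 174 and 206 CPM in WT. Of these 14 genes, 11 were called lower in Het than in WT. No macrophage gene was at 0 throughout a group. In such bulk samples, fewer cells of a type and less RNA per cell cannot be told apart.

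Het against WT fibroblasts of experiment 2 had more members past the threshold than any other comparison made. The fits differed in what they could detect, so counts of calls in different fits are not sizes of effect. On simulated counts, 52% of 1.3-fold changes were called for Het against WT in experiment 2. For KO against WT 12% were called, and for lung 0%. Of the 37, 7 were called higher and 2 lower in Het, where 7.89% of all 14314 genes tested were called higher and 8.61% lower. The 7 that rose were Ddit4, Sesn2, Plk2, Aen, Zmat3, Trp53inp1 and Pmaip1, and the 2 that fell were Perp and Fas. Trp53, its negative regulators Mdm2 and Mdm4, and the arrest gene Cdkn1a did not pass the test. The median log2 fold change of the 37 was 0.14, and 26 lay above 0, where 51.1% of all genes did. In 15 of the 37 every Het library lay above every WT library and in 3 below, where 17.1 and 16.8% of all genes did so. An unadjusted p under 0.05 was reached by 15 members and by 31% of genes.

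Markers of other kinds moved in the same comparison. Of 8 cycling genes, 6 were called lower in Het. The sum over 6 skeletal muscle genes was 61.8, 40.1 and 58.0 CPM in Het, against 18.8, 9.29 and 19.3 CPM in WT, and 1 of the 3 tested, the embryonic myosin Myh3, was called higher. The sum over 6 neural genes was 281, 249 and 301 CPM in Het, against 229, 174 and 227 CPM in WT, and 0 of the 5 tested were called. None of these muscle or neural genes was at 0 throughout either group. Their part in the members' changes was not tested.

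The stress and metabolism genes Ddit4 and Sesn2 both encode inhibitors of the growth kinase mTORC1. Ddit4 had 96.0, 91.8 and 112 CPM in Het, against 67.5, 46.5 and 47.0 CPM in WT. Every Het library lay above every WT library, and the log2 fold change was 0.90 ± 0.14 (SE, n = 3 each; edgeR adjusted p = 0.00300). Sesn2 had 88.2, 89.6 and 90.8 CPM in Het, against 70.5, 65.7 and 53.7 CPM in WT. The Het libraries were tightly grouped above all WT libraries, with a log2 fold change of 0.50 ± 0.10 (SE; edgeR adjusted p = 0.00566). The other sestrin, Sesn1, had 12.4, 13.4 and 12.5 CPM in Het, against 12.7, 18.9 and 13.3 CPM in WT, and did not pass. Ddit4, Sesn2 and Perp were past the threshold under all 11 alternatives tried. They were the 3 members left without WT replicate 2 and without Het replicate 3, and 5 members passed without Het replicate 2.

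Among the arrest genes, Plk2, a polo-like kinase of the S phase and centriole duplication, had 341, 344 and 393 CPM in Het, against 281, 225 and 243 CPM in WT. All Het values were above all WT values, and the log2 fold change was 0.52 ± 0.13 (SE; edgeR adjusted p = 0.0234). The call of Plk2 held under 8 of the 11 alternatives, with edgeR adjusted p up to 0.0899. Cdkn1a, which encodes the cyclin-dependent kinase inhibitor p21, had 223, 197 and 210 CPM in Het, against 161, 160 and 197 CPM in WT. The lowest Het library lay just above the highest WT library, and the log2 fold change of 0.28 (95% interval -0.08 to 0.65) did not pass (edgeR adjusted p = 0.272). Gadd45a, a growth arrest and DNA damage gene, had 16.6, 18.8 and 21.8 CPM in Het, against 15.2, 14.5 and 8.45 CPM in WT, and did not pass either. Of its exon length, 19.1% overlaps E230016M11Rik on the opposite strand, and the library kit does not mark strand.

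The apoptosis genes moved in both directions, with 4 of 13 called higher and 2 lower. Pmaip1, which encodes the BH3-only killer protein Noxa, had 19.2, 20.0 and 23.8 CPM in Het, against 8.34, 8.50 and 13.3 CPM in WT. The groups did not overlap, and its log2 fold change was 1.07 ± 0.32 (SE; edgeR adjusted p = 0.0494). The call was lost under size-factor scaling (edgeR adjusted p = 0.0508), with no low-count filter (0.0852) and with any library but WT replicate 3 left out (0.0856 to 0.159). Aen, an apoptosis-enhancing nuclease, had 127, 115 and 120 CPM in Het, against 102, 92.2 and 109 CPM in WT. Its log2 fold change was 0.26 ± 0.07 (SE; edgeR adjusted p = 0.0241). Zmat3, an RNA-binding zinc finger protein, had 125, 114 and 113 CPM in Het, against 95.8, 82.1 and 98.4 CPM in WT. Trp53inp1, a p53-inducible nuclear protein, had 40.9, 35.9 and 36.4 CPM in Het, against 32.0, 28.6 and 27.6 CPM in WT. Both stood higher in every Het library, by 0.35 ± 0.10 for Zmat3 and 0.36 ± 0.11 for Trp53inp1 on the log2 scale (SE; edgeR adjusted p of 0.0287 and 0.0459). Of the 11 alternatives, Aen and Zmat3 each passed under 7 and Trp53inp1 under 5. Their edgeR adjusted p reached 0.0857, 0.0957 and 0.145.

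Perp, a p53 target that also builds desmosomes in epithelia, had 0.852, 0.375 and 0.195 CPM in Het, against 1.92, 6.68 and 3.67 CPM in WT. These levels rest on 36, 15 and 7 counts in Het and on 73, 260 and 129 counts in WT, and the log2 fold change was -3.08 ± 0.58 (SE; edgeR adjusted p = 0.00533). Fas, the death receptor for Fas ligand, had 4.71, 3.78 and 2.84 CPM in Het, against 5.68, 7.47 and 6.40 CPM in WT, a log2 fold change of -0.78 ± 0.22 (SE; edgeR adjusted p = 0.0276). The call of Fas held under 6 of the 11 alternatives, with edgeR adjusted p up to 0.109. Both genes were lower in every Het library than in any WT library, as were the macrophage sums. Summed over 12 epithelial genes, the level was 21.5 to 30.4 CPM in Het and 29.7 to 50.2 CPM in WT, with 1 of 9 tested called lower and 4 of 9 above 0. The part of either cell type in the 2 results was not tested.

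The genes at the core of the loop gave smaller values. Trp53 had 169, 168 and 173 CPM in Het, against 172, 164 and 174 CPM in WT. These ranges overlapped, with a log2 fold change of 0.0010 (95% interval -0.10 to 0.10; edgeR adjusted p = 0.992). Mdm2, the ubiquitin ligase that removes p53, had 121, 112 and 120 CPM in Het, against 97.6, 86.3 and 115 CPM in WT. WT replicates 1 and 2 lay below all Het libraries and WT replicate 3 within their range, and the log2 fold change of 0.24 (-0.10 to 0.58) did not pass (edgeR adjusted p = 0.334). No repair gene passed, their log2 fold changes lying between -0.15 and 0.22.

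**Figure D1:**
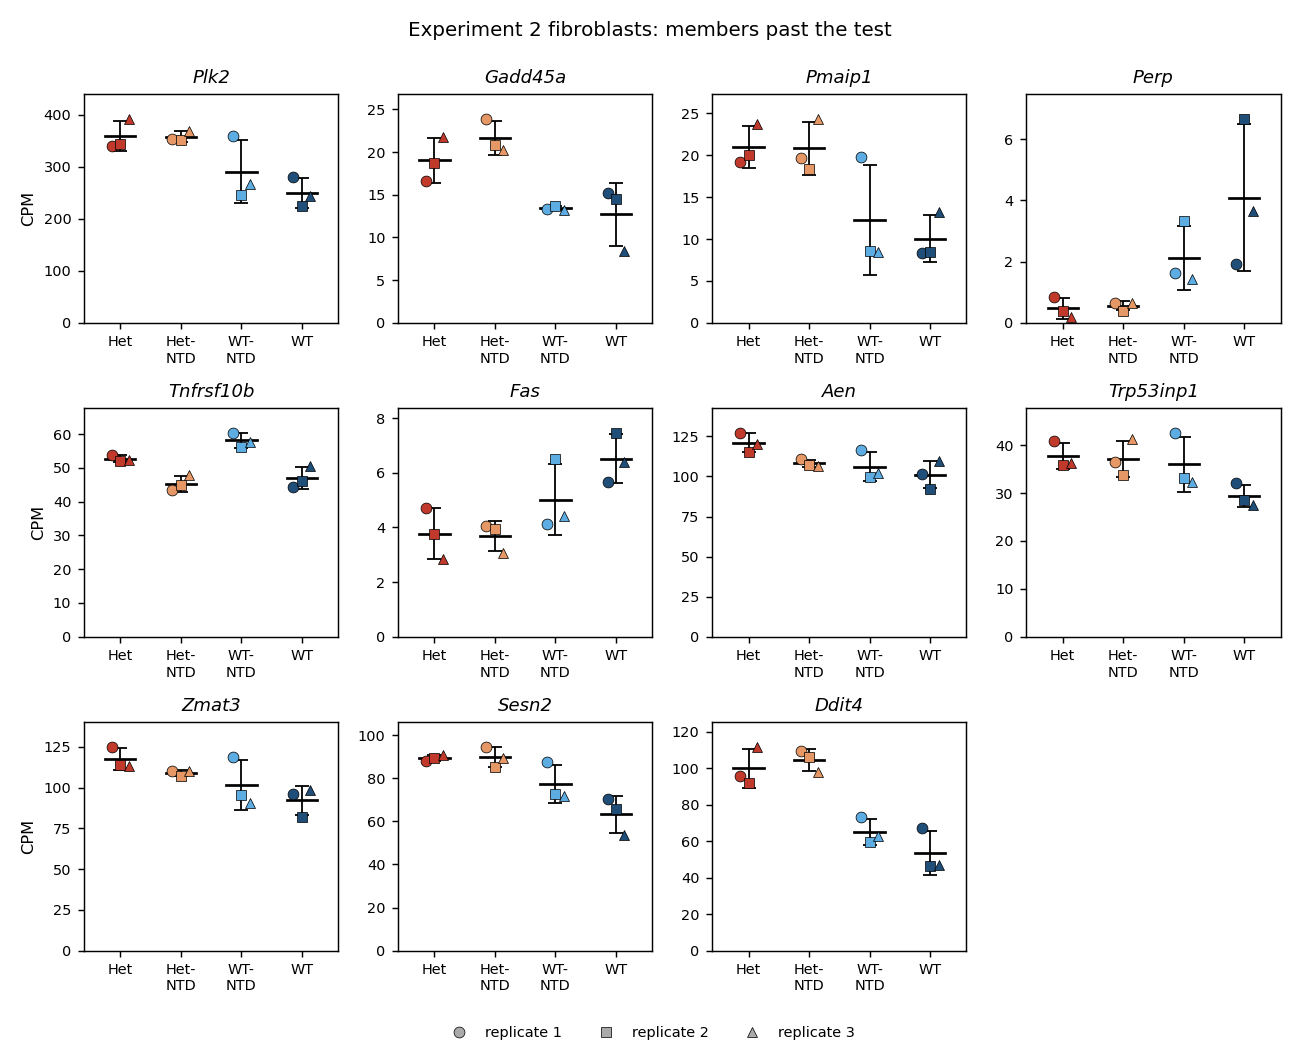
Level in CPM of the 11 members that passed the test in Het against WT or in Het-NTD against WT-NTD, in the 4 fibroblast groups of experiment 2. Points are libraries, horizontal lines are means and error bars are SD (n = 3); Ddit4, Sesn2 and Pmaip1 stand higher in Het than in WT, and Perp and Fas lower.

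The same genotype contrast could be read in separate libraries, Het-NTD against WT-NTD. There 2 members were called higher and 2 lower, where 5.24% of genes were called higher and 6.24% lower. Ddit4 had 109, 106 and 98.1 CPM in Het-NTD, against 73.3, 59.5 and 62.8 CPM in WT-NTD, a log2 fold change of 0.68 ± 0.14 (SE; edgeR adjusted p = 0.0136). Perp had 0.634, 0.383 and 0.662 CPM in Het-NTD, against 1.61, 3.33 and 1.43 CPM in WT-NTD, a log2 fold change of -1.94 ± 0.57 (SE; edgeR adjusted p = 0.04996). Neither gene's groups overlapped, and these were the 2 members called in both comparisons. The call of Ddit4 here held under 8 of the 11 alternatives, with edgeR adjusted p up to 0.0543. The call of Perp here was lost with any 1 of the 6 libraries left out (edgeR adjusted p from 0.0581 to 0.182) and with no low-count filter (0.0729). All 9 members called in Het against WT had the same sign here. How many of all genes called in Het against WT kept their sign was not counted. Of the 37, 19 had a log2 fold change above 0 here, where 50.9% of all genes did, and their median was 0.03. At an unadjusted p under 0.05 there were 11 members, where 25.4% of genes reached it. Of the 37, 3 lay wholly above WT-NTD in Het-NTD and 6 wholly below, where 16.3 and 15.8% of all genes did. With libraries left out in turn, 1 member passed without Het-NTD replicate 1 or WT-NTD replicate 2, 2 without Het-NTD replicate 2, Het-NTD replicate 3 or WT-NTD replicate 3, and 5 without WT-NTD replicate 1.

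Gadd45a and Tnfrsf10b were called in the NTD libraries and not in Het against WT. Gadd45a had 23.9, 20.8 and 20.2 CPM in Het-NTD, against 13.3, 13.7 and 13.2 CPM in WT-NTD. Its log2 fold change was 0.69 ± 0.18 (SE; edgeR adjusted p = 0.0334), and all Het-NTD libraries lay above the tight WT-NTD group. The call was lost with any 1 of the 6 libraries left out (edgeR adjusted p from 0.0633 to 0.122). Tnfrsf10b, the mouse death receptor for the ligand TRAIL, had 43.3, 44.8 and 48.0 CPM in Het-NTD, against 60.5, 56.2 and 57.8 CPM in WT-NTD. It was lower in all 3 Het-NTD libraries, with a log2 fold change of -0.36 ± 0.06 (SE; edgeR adjusted p = 0.00165), past the threshold under all 11 alternatives. In Het against WT it had 54.0, 51.9 and 52.4 CPM in Het and 44.3, 46.2 and 50.5 CPM in WT, the opposite order. Of the 14 macrophage genes, 13 were called lower in Het-NTD than in WT-NTD, and their part in the 4 results was not tested.

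NTD itself was compared within a genotype. No member passed in Het-NTD against Het, where 1 gene was called higher and 1 lower (0.00699% of genes each), and 4 members had an unadjusted p under 0.05, as 6.26% of genes did. Tnfrsf10b, Phlda3 and Mdm4 had the lowest p-values. Tnfrsf10b had a log2 fold change of -0.22 ± 0.06, Phlda3, an inhibitor of Akt, -0.17 ± 0.07, and Mdm4 0.15 ± 0.06 (SE; edgeR adjusted p of 0.584, 0.760 and 0.769). Trp53 had 176, 172 and 176 CPM in Het-NTD, Mdm2 had 102, 99.8 and 115 CPM and Cdkn1a had 184, 149 and 201 CPM, against the Het values above. Their log2 fold changes were 0.04, -0.16 and -0.24 (edgeR adjusted p of 0.939, 0.920 and 0.880), and the ranges of all 3 overlapped those of Het. In Het-NTD, 1 member lay wholly above Het and 5 wholly below, where 8.16 and 8.15% of all genes did. DESeq2 also called 0 members here, and 23 of 18837 genes in all.

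No member passed in WT-NTD against WT either, where 2 genes were called higher (0.0140% of those tested) and 0 lower, and 6 members had an unadjusted p under 0.05, as 7.37% of genes did. Tnfrsf10b had 60.5, 56.2 and 57.8 CPM in WT-NTD, against 44.3, 46.2 and 50.5 CPM in WT. All WT-NTD libraries lay above all WT libraries, and the log2 fold change of 0.31 ± 0.06 had an edgeR adjusted p of 0.227. DESeq2 called 1 member, Tnfrsf10b, and 21 of 18837 genes in all. In WT-NTD, 5 members lay wholly above WT and 0 wholly below, where 4.48 and 4.85% of all genes did. Sesn2 had a log2 fold change of 0.29 ± 0.10, and Apaf1, the scaffold of the apoptosome, 0.14 ± 0.05 (SE; edgeR adjusted p = 0.654 each). The difference between the NTD effects in Het and in WT was tested as an interaction, in which 0 of 14314 genes passed (0% called) and 3 members had an unadjusted p under 0.05, as 4.97% of genes did. Tnfrsf10b had a difference of -0.53 ± 0.08 on the log2 scale (SE; edgeR adjusted p = 0.259, DESeq2 adjusted p = 1.9e-04), Plk3 -0.33 ± 0.13 and Aen -0.23 ± 0.10 (SE; edgeR adjusted p = 0.892 each). Of the exon length of Plk3, 3.32% overlaps Tctex1d4 on the opposite strand.

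KO against WT fibroblasts of experiment 1 had 3 members past the threshold, where 0.447% of all genes were called in either direction. Cul9 and Ephx1 were called higher, where 0.124% of 14551 genes were called higher, and Sfn lower, where 0.323% were. Cul9, a cullin that binds p53 in the cytoplasm, had 8.70, 10.8 and 9.61 CPM in KO, against 4.17, 5.49 and 4.90 CPM in WT. The KO libraries lay well above all WT libraries, a log2 fold change of 0.998 ± 0.13 (SE; edgeR adjusted p = 0.0170). Ephx1, the microsomal epoxide hydrolase that detoxifies reactive compounds, had 87.2, 88.0 and 79.7 CPM in KO, against 59.5, 59.0 and 61.0 CPM in WT. Its libraries were close together within each group, and the log2 fold change was 0.51 ± 0.06 (SE; edgeR adjusted p = 0.00764). Sfn, the 14-3-3 sigma protein that holds cells in G2, had 4.83, 4.27 and 8.96 CPM in KO, against 31.7, 24.4 and 22.5 CPM in WT. The highest KO library was far below the lowest WT library, a log2 fold change of -2.12 ± 0.31 (SE; edgeR adjusted p = 0.0308).

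Sfn is abundant in epithelia, and the sum over 12 epithelial genes was 30.1, 31.5 and 25.2 CPM in KO, against 50.02, 36.0 and 33.9 CPM in WT. None of the 9 epithelial genes tested was called in either direction. Of these 9, 6 had a log2 fold change above 0 with a median of 0.50, opposite in sign to the difference of the sum, and Esrp1 and Grhl2 were at 0 in all WT libraries. Their part in the Sfn result was not tested. With each library left out in turn, 0 to 2 of the 3 genes stayed past the threshold. None passed without WT replicate 1 or KO replicate 2, and Ephx1 alone did without WT replicate 3. Cul9 and Ephx1 passed without KO replicate 1 and without WT replicate 2, and Sfn and Ephx1 without KO replicate 3.

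The classical targets Cdkn1a and Mdm2 did not pass in KO, and their KO libraries were widely spread. Cdkn1a had 234, 179 and 132 CPM in KO, against 130, 133 and 108 CPM in WT. Its log2 fold change was 0.55 (95% interval 0.08 to 1.02; edgeR adjusted p = 0.334), and the lowest KO library lay within the WT range. Mdm2 had 173, 108 and 94.3 CPM in KO, against 102, 104 and 94.1 CPM in WT, a log2 fold change of 0.32 (-0.18 to 0.82; edgeR adjusted p = 0.606). Trp53 had 154, 139 and 135 CPM in KO, against 138, 150 and 132 CPM in WT, with overlapping ranges and a log2 fold change of 0.03 (-0.12 to 0.18; edgeR adjusted p = 0.905). Over the 37 members the median log2 fold change was 0.13 and 30 were above 0, where the median of all genes was 0.01 and 51.9% were above 0. The members' CPM lay wholly above WT in 8 of 37 cases and wholly below in 2, where 8.47 and 8.87% of all genes did so. There were 8 members with an unadjusted p under 0.05, as for 12% of genes.

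**Figure D2:**
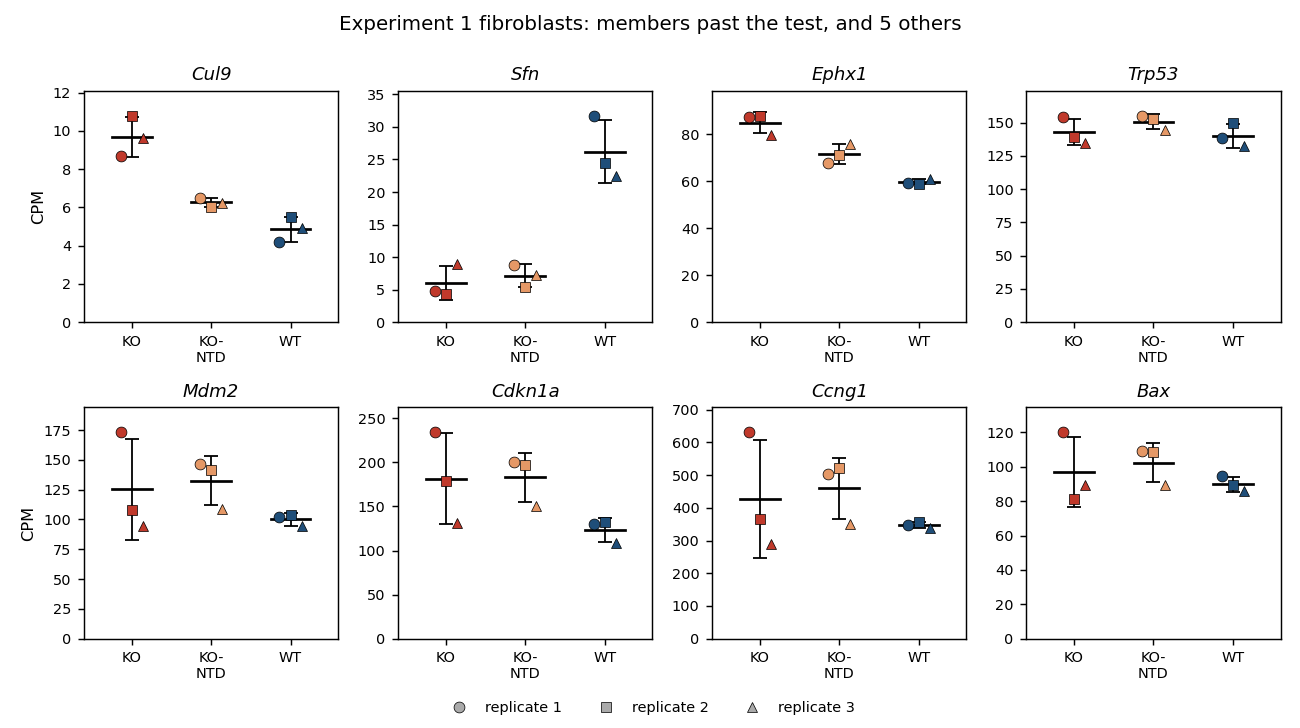
Level in CPM of the 3 members that passed the test in KO against WT, and of Trp53, Mdm2, Cdkn1a, Ccng1 and Bax, in the 3 fibroblast groups of experiment 1. Points are libraries, horizontal lines are means and error bars are SD (n = 3); Cul9, Ephx1 and Sfn separate KO from WT, while Mdm2, Cdkn1a, Ccng1 and Bax are highest in KO replicate 1.

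KO-NTD against KO set out the effect of NTD in the KO cells. No member passed in edgeR, where the single gene called higher was Foxm1 (0.00687% of those tested) and 0 were called lower. Cul9 had 6.50, 6.04 and 6.23 CPM in KO-NTD, below every KO library and above every WT library, a log2 fold change against KO of -0.63 ± 0.13 (SE; edgeR adjusted p = 0.714, DESeq2 adjusted p = 0.0154). Ephx1 had 67.7, 71.1 and 76.0 CPM in KO-NTD, likewise between the KO and WT libraries, a log2 fold change of -0.25 ± 0.06. Fas had 2.95, 3.51 and 5.75 CPM in KO-NTD, against 5.39, 6.90 and 7.14 CPM in KO, a log2 fold change of -0.67 ± 0.24 (SE; edgeR adjusted p = 0.714 for both), with 1 KO-NTD library inside the KO range. Sfn had 8.81, 5.42 and 7.26 CPM in KO-NTD, which overlapped its KO values. At an unadjusted p under 0.05 there were 4 members, where 6.68% of genes reached it. DESeq2 called 1 member, Cul9, and 26 of 19015 genes in all. In KO-NTD, 0 members lay wholly above KO and 2 wholly below, where 5.74 and 5.42% of all genes did.

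Trp53 had 155, 153 and 144 CPM in KO-NTD, Mdm2 had 147, 142 and 109 CPM and Cdkn1a had 201, 197 and 151 CPM. All 3 overlapped their KO values, with log2 fold changes of 0.08, 0.08 and 0.01 (edgeR adjusted p of 0.770, 0.927 and 0.992). Set against WT, no member passed in KO-NTD, where 0.0619% of genes were called higher and 0.378% lower (0.44% in all). The lowest p-values were those of Sfn with a log2 fold change of -1.87 ± 0.31, Ephx1 with 0.26 ± 0.06 and Sesn2 with 0.27 ± 0.07 (SE; edgeR adjusted p of 0.0576, 0.152 and 0.206). At an unadjusted p under 0.05 there were 14 members, where 12.1% of all genes reached it. DESeq2 called 3 members, and 378 of 19015 genes in all. Of the 37, 15 lay wholly above WT in KO-NTD and 3 wholly below, where 10.2 and 11.2% of all genes did. This comparison shares its WT libraries with KO against WT and its KO-NTD libraries with KO-NTD against KO.

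The KO and Het effects were set against each other in a joint fit of their 12 libraries, 3 in each of the 4 groups. No member passed, where 0.152% of 14510 genes were called higher and 0.172% lower. Ephx1 had a difference of 0.73 ± 0.15 on the log2 scale, Cul9 0.96 ± 0.21 and Sfn -1.65 ± 0.36 (SE; edgeR adjusted p = 0.0751 each). DESeq2 called 6 members, and 717 of 19135 genes in all. Without KO replicate 1, edgeR called 6 members, those 3 together with Pmaip1, Fas and Ddit4, and 1571 of 14634 genes in all. Without KO replicate 3, or without WT replicate 1 of experiment 2, 1 was called. At an unadjusted p under 0.05 there were 11 members, where 16.5% of genes reached it. The KO and Het groups were of different experiments, so each effect was taken against the WT of its own experiment.

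**Figure D3:**
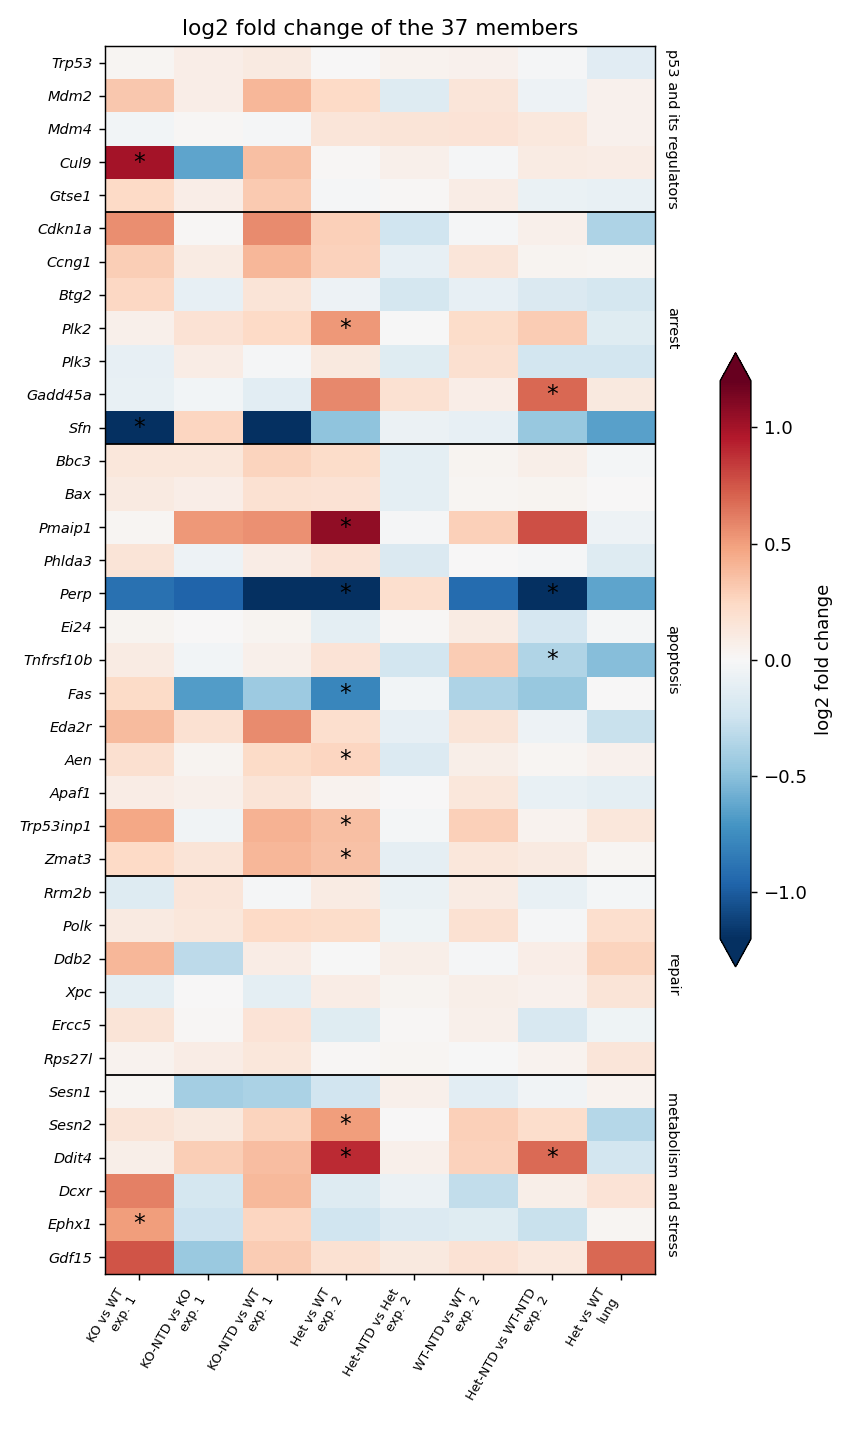
Log2 fold change of the 37 members (rows, grouped by role) in the 8 comparisons between 2 groups (columns), with the colour scale ending at ±1.2 and asterisks at an edgeR adjusted p below 0.05. Asterisks stand at 3 members in KO against WT, at 9 in Het against WT and at 4 in Het-NTD against WT-NTD, and at none elsewhere.

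Whole lung of Het animals gave no called gene, member or not, among 15933 tested (0% in either direction). At an unadjusted p under 0.05 there was 1 member, where 0.715% of genes reached it, and DESeq2 called 0 members and 1 gene. Cdkn1a had 43.2, 48.4 and 42.5 CPM in Het lungs, against 67.7, 53.5 and 52.4 CPM in WT lungs. It was lower in each Het lung than in any WT lung, with a log2 fold change of -0.37 ± 0.14 (SE; edgeR adjusted p = 1). Gdf15, a secreted stress cytokine, had 1.73, 2.03 and 1.302 CPM in Het lungs, against 0.977, 0.936 and 1.23 CPM in WT lungs, a log2 fold change of 0.69 ± 0.30. Ddb2, a DNA damage sensor of nucleotide excision repair, had 7.96, 7.80 and 7.16 CPM in Het lungs, against 5.91, 6.71 and 6.39 CPM in WT lungs, a log2 fold change of 0.27 ± 0.16 (SE; edgeR adjusted p = 1 for both). Of the 37, 2 lay wholly above WT in Het lungs and 2 wholly below, where 1.96 and 2.28% of all genes did. Of the exon length of Ddb2, 23.8% overlaps Acp2 on the opposite strand.

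Trp53 had 60.7, 54.9 and 62.3 CPM in Het lungs, against 63.2, 65.3 and 66.5 CPM in WT lungs, slightly lower in each Het lung (log2 fold change -0.13, 95% interval -0.37 to 0.11). Mdm2 had 59.1, 58.2 and 56.0 CPM in Het lungs, against 56.5, 54.8 and 55.4 CPM in WT lungs (0.06, -0.17 to 0.28; edgeR adjusted p = 1 for both). Perp and Sfn were each highest in WT lung replicate 2, at 93.7 and 79.8 CPM, against 34.2 and 29.8 CPM in WT lung replicate 3 and 19.6 and 18.1 CPM in replicate 1. The Het effect in lung was then set against that in fibroblasts in a joint fit of 16364 genes. No member passed, where 0.813% of genes were called higher and 0.312% lower, and 6 had an unadjusted p under 0.05, as 11.3% of genes did. Plk2 had a difference of -0.65 ± 0.15 on the log2 scale, Ddit4 -1.11 ± 0.26 and Cdkn1a -0.65 ± 0.17 (SE; edgeR adjusted p of 0.0596, 0.0668 and 0.0987). DESeq2 called 4 members, and 711 of 19914 genes in all. Without WT replicate 1 of experiment 2, or without lung Het replicate 3, 2 members were called. With each of the 12 libraries left out in turn, 39 to 546 genes were called.

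In several fibroblast groups the members also varied together between libraries of the group. In lung their highest values were spread over replicates 1, 2 and 3. The counts were 13, 11 and 13 members in Het lung (34.2, 24.1 and 41.7% of all genes). In WT lung they were 16, 10 and 11 (38.9, 33.6 and 27.5%). In KO replicate 1, Ccng1, a cyclin G and one of the most abundant p53 targets, reached 631 CPM, against 365 and 288 CPM in the other KO libraries. In KO-NTD it had 504, 522 and 352 CPM, and in WT of experiment 1 it had 348, 356 and 339 CPM. Mdm2, Cdkn1a, Bax, Eda2r and Pmaip1 were likewise highest in KO replicate 1 among the KO libraries. Over all 37, KO replicate 1 held the highest value of its group for 23 members (62.2%, against 40.2% of all genes), and KO replicate 3 the lowest for 24 (64.9%, against 30.8%). KO-NTD replicate 1 held the highest for 24 members (against 29.2% of all genes) and KO-NTD replicate 3 the lowest for 24 (against 36.0%).

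In experiment 2, Het replicate 1 held the highest value of its group for 24 members (64.9%, against 33.4% of all genes), and WT-NTD replicate 1 for 26 (70.3%, against 38.0%). In WT-NTD replicate 1, Mdm2 had 141 CPM, against 94.6 and 95.4 CPM in the other WT-NTD libraries. Cdkn1a had 216 CPM there, against 145 and 150 CPM, and Pmaip1 19.8 CPM, against 8.56 and 8.47 CPM. Trp53 had 189 CPM in that library, against 167 and 172 CPM. The macrophage sum was the lowest of its group in KO replicate 1 and the highest of its group in WT-NTD replicate 1 and Het replicate 1. The sum over 6 skeletal muscle genes was the highest of its group in all 3, at 68.6 CPM in KO replicate 1 (9.91 and 10.4 CPM in the other KO libraries), 41.2 CPM in WT-NTD replicate 1 (10.1 and 12.3 CPM) and 61.8 CPM in Het replicate 1 (40.1 and 58.0 CPM). The sum over 6 neural genes was 245 CPM in KO replicate 1, against 132 and 127 CPM, and 268 CPM in WT-NTD replicate 1, against 196 and 219 CPM, while in Het it was highest in replicate 3. In KO-NTD the muscle sum was highest in replicate 2 and the neural sum in replicate 1. The part of these cell types in the orders was not tested. What the libraries with high values share was not tested, and these orders are a description with no test.

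**Figure D4:**
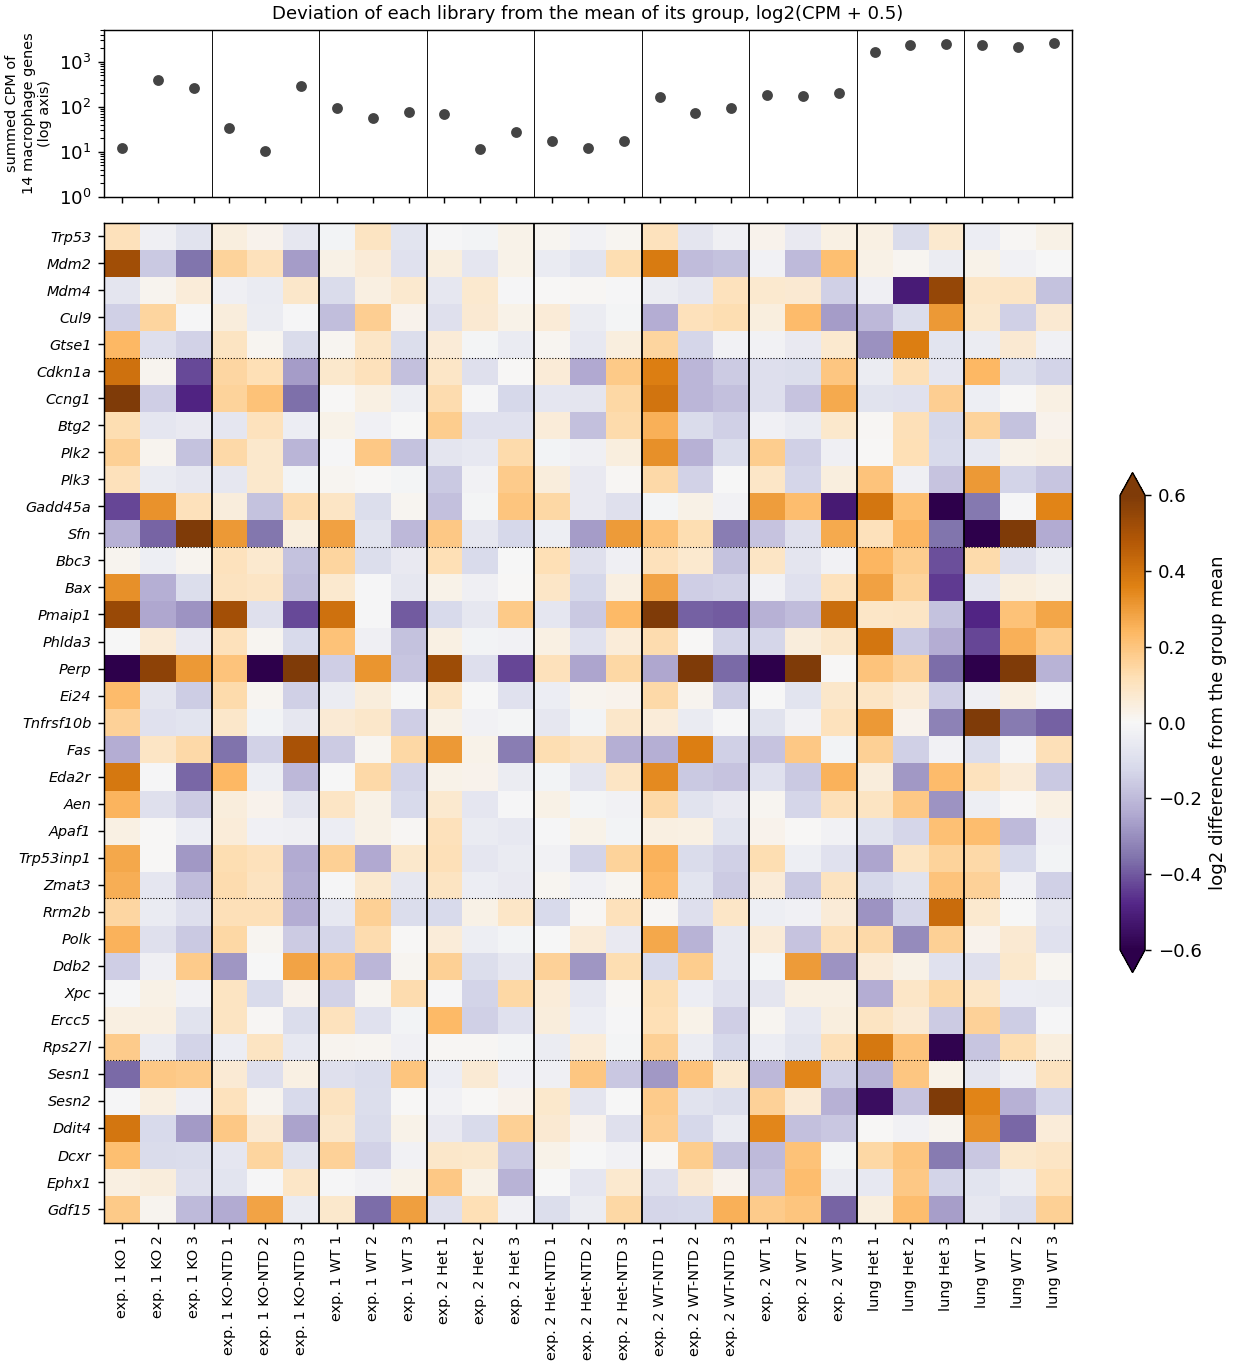
Difference of each library from the mean of its group on the log2(CPM + 0.5) scale, for the 37 members (rows) in all 27 libraries (columns), with the colour scale ending at ±0.6. The upper panel gives the summed CPM of 14 macrophage genes on a log axis; KO replicate 1 and WT-NTD replicate 1 are high for most members, with macrophage sums of 12.4 and 169 CPM.

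Promoter windows of 4 members that were highest in KO replicate 1 and in WT-NTD replicate 1, and of Aen, which rose in Het, are printed. They show where matches to a 10-base p53 element stand. Sequences are from RefSeq on GRCm38.p6, run from 250 bases before to 50 bases after an annotated start, and are written 5′ to 3′ on the gene's strand. Capitals mark a match to this element. It is 1 copy of the pair that p53 binds, so a lone match is not a full p53 site. Every window printed holds a match. Apaf1, Btg2, Ddit4, Eda2r, Plk2 and Plk3 were also highest of their group in KO replicate 1 and in WT-NTD replicate 1. Their windows held none and are not printed.
Cdkn1a: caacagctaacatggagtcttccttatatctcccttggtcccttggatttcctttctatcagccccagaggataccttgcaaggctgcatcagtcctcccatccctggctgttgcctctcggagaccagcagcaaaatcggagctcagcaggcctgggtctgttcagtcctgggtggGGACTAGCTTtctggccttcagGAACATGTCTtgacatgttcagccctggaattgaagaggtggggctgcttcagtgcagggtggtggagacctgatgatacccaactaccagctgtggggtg
Mdm2: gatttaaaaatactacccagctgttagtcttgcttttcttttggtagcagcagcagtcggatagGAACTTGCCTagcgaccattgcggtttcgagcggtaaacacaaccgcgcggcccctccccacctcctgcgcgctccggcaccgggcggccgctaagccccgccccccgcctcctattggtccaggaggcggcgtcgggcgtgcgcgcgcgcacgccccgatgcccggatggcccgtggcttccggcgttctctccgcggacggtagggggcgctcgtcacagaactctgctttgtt
Ccng1: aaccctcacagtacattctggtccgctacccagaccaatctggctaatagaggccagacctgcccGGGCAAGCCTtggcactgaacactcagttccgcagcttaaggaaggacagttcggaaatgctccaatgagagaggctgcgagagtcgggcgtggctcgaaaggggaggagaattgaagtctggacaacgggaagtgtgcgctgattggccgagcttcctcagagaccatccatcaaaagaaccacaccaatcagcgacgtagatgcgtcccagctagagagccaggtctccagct
Bax: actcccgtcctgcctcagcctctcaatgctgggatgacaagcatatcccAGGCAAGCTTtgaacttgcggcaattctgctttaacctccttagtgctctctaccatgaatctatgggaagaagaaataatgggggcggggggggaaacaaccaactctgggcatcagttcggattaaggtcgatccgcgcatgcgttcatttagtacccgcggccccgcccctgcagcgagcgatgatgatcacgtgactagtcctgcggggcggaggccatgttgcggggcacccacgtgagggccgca
Aen: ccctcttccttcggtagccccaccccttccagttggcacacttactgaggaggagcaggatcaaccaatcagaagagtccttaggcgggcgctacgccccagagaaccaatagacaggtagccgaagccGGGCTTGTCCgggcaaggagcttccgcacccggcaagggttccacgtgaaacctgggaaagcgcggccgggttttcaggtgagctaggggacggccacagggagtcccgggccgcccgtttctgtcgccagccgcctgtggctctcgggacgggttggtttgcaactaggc

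The windows lie at chr17:29090729-29091028 (plus strand) for Cdkn1a, chr10:117710709-117711008 (minus) for Mdm2, chr11:40755237-40755536 (minus) for Ccng1, chr7:45466849-45467148 (minus) for Bax and chr7:78895808-78896107 (plus) for Aen. In this Cdkn1a window, 2 elements began 73 and 51 bases before the start. The window at the other annotated start of Cdkn1a, chr17:29093519-29093818 (plus strand), held none. Cdkn1a was the only member with a pair 0 to 13 bases apart. Such a pair was in 0.0731% of all 32851 windows. A single element, with no second copy to form a pair, began 186 bases before the start in Mdm2, 185 in Ccng1, 201 in Bax and 121 in Aen. RefSeq windows were matched by symbol for 29 members, and Pmaip1, Perp, Tnfrsf10b, Trp53inp1, Zmat3, Rrm2b, Ddb2 and Xpc had none.

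Of the 39 windows of these 29 members, 13 held a copy of the p53 element on either strand, paired or not, against 8.36% of all windows of this length. These belonged to 12 members, among them the arrest genes Cdkn1a, Ccng1 and Gadd45a and the apoptosis genes Bax, Aen and Ei24. Of the members called in Het against WT that had a window, Ddit4, Sesn2, Plk2 and Fas held none in it and Aen did. The cell cycle homology region element, TTTGAA or TTCGAA on either strand, at which DREAM and Foxm1 complexes act in mitotic genes, was in 6 of the 39 windows and in 19.2% of all. Those 6 members were Aen, Bax, Ddit4, Ercc5, Fas and Gdf15. A match is a run of letters and not a measured site, and p53 elements outside these windows were not searched.

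Other genes of the pathway were followed in lists of 43 further targets and 28 further regulators of p53, of which 42 and 27 were tested in fibroblasts. In KO against WT, 1 further target was called lower and 0 higher, and 0 regulators passed, where 0.323% of all genes were called lower and 0.124% higher. That target was Ckap2, a spindle protein that rises in mitosis, at 41.8 ± 3.87 CPM in KO, against 65.5 ± 2.12 CPM in WT (SD, n = 3 each), a log2 fold change of -0.65 (edgeR adjusted p = 0.00764). Of 8 cycling genes, among them Mki67 and Top2a, 2 were called lower in KO, and their sum was 1424, 1557 and 1467 CPM in KO, against 1514, 1743 and 1662 CPM in WT. In Het against WT, 6 further targets were called higher and 5 lower, and 1 regulator higher, where 7.89% of all genes were called higher and 8.61% lower. Ak1, an adenylate kinase, had 110 ± 2.71 CPM in Het and 69.4 ± 5.21 CPM in WT, and Dram1, an autophagy regulator of lysosomes, had 24.5 ± 1.17 CPM in Het and 16.3 ± 1.59 CPM in WT. Their log2 fold changes were 0.67 and 0.58 (edgeR adjusted p of 1.5e-04 and 0.00246).

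Ckap2 fell in Het as well, at 49.7 ± 5.25 CPM in Het and 73.6 ± 6.97 CPM in WT (log2 fold change -0.57, edgeR adjusted p = 0.00181). The regulator was Trp53bp1, the DNA break repair protein 53BP1, with 60.1 ± 3.85 CPM in Het and 47.5 ± 1.45 CPM in WT (log2 fold change 0.34, edgeR adjusted p = 7.0e-04). The median log2 fold change was -0.0035 over the further targets and -0.03 over the regulators. Notch1, a receptor among the further targets, was the single pathway gene called in Het-NTD against Het, at 66.0 ± 0.53 CPM in Het-NTD and 81.7 ± 2.43 CPM in Het (log2 fold change -0.31, edgeR adjusted p = 0.0322). That call held under 5 of the 11 alternatives, with edgeR adjusted p up to 0.270. In Het-NTD against WT-NTD, 2 further targets were called higher and 4 lower, and 1 regulator each way, with Ak1, Dram1 and Trp53bp1 higher and Notch1 lower, where 5.24% of all genes were called higher and 6.24% lower. In lung 0 of 43 targets and 0 of 28 regulators passed. The cycling genes summed to 1292, 1346 and 1313 CPM in Het, against 1589, 1568 and 1604 CPM in WT of experiment 2, with 6 of 8 called lower, and their part in the Ckap2 results was not tested.

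Levels were compared between members only per kilobase of exon, with exon lengths from GENCODE M21. In fibroblasts the highest were Rps27l, a ribosomal protein-like gene, at 121 to 170 CPM per kilobase over 21 libraries, Ccng1 at 68.5 to 180, and Phlda3 at 75.4 to 122. The lowest were Ddb2 at 0.296 to 0.751 and Cul9 at 0.342 to 0.890, and Perp reached from 0.0998 to 3.42. Trp53 stood at 32.7 to 46.8, and Mdm2 at 16.97 to 34.1 CPM per kilobase. In the 6 lungs Trp53 stood at 13.6 to 16.4 and Mdm2 at 10.8 to 11.6. The ranges of neighbours in this order overlapped for most genes, so it is not a strict ranking.

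Lung and fibroblast levels were scaled in separate fits and are set side by side with no test. Of the 37, 17 lay below all fibroblast libraries in every lung library, as 21.1% of 13744 genes tested in both did, 13 lay above (37.3% of genes), and 7 overlapped. Eda2r, the ectodysplasin A2 receptor, had 0.297 to 0.502 CPM per kilobase in lung and 4.62 to 9.09 in fibroblasts. Gtse1, a protein of G2 and S phase that binds p53, had 1.55 to 2.56 in lung and 22.9 to 34.0 in fibroblasts. Above the fibroblasts were Perp, at 10.1 to 48.0 in lung, Dcxr, a carbonyl reductase, at 51.9 to 75.6 in lung and 5.05 to 11.02 in fibroblasts, and Fas, at 11.2 to 13.9 in lung and 1.38 to 3.62 in fibroblasts. The epithelial sum was 1110 to 1483 CPM in lung and 21.5 to 50.2 CPM in fibroblasts, and the cycling sum 193 to 287 CPM in lung and 1292 to 1743 CPM in fibroblasts.

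**Figure D5:**
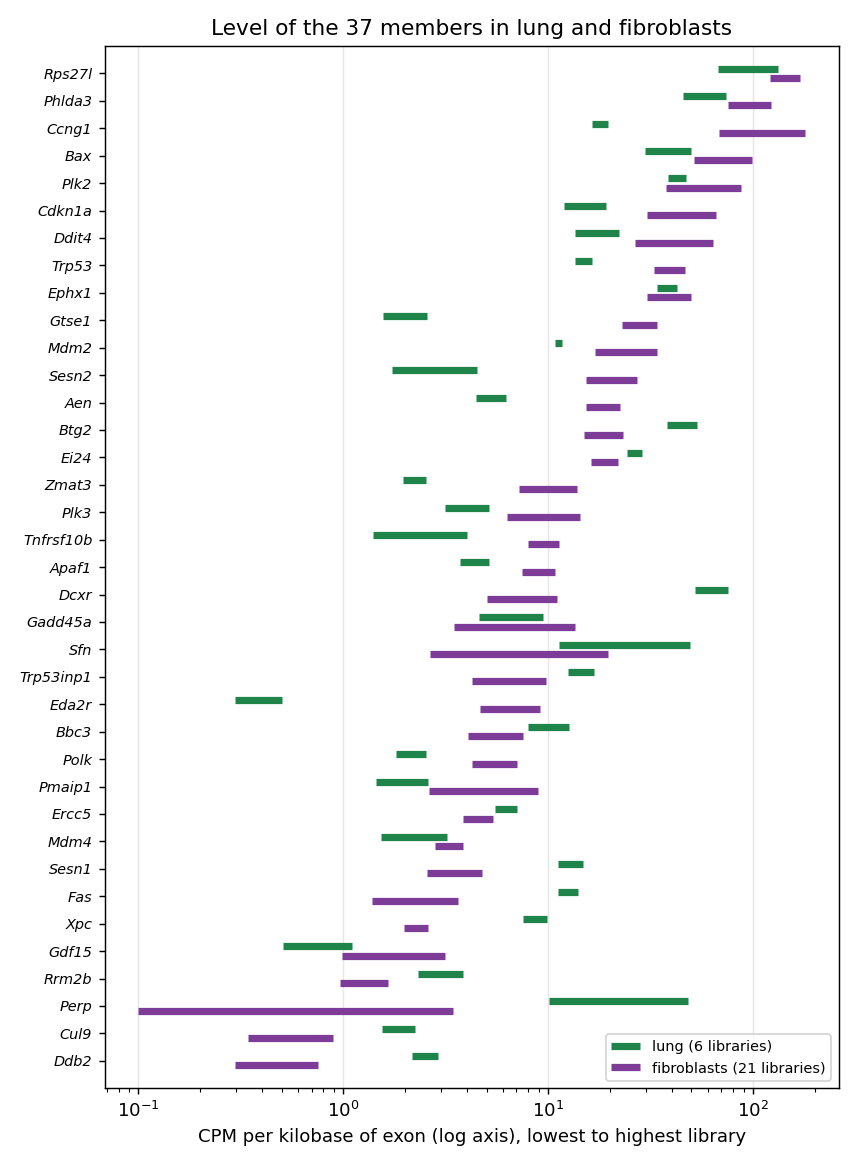
Lowest to highest level of each member in CPM per kilobase of exon, on a log axis, over 6 lung libraries (upper bar) and 21 fibroblast libraries (lower bar), ordered by the fibroblast mean. Eda2r and Gtse1 lie far lower in lung and Perp, Dcxr and Fas far higher.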

How the data were processed

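The authors deposited raw read counts per gene symbol for 27 libraries, each counted as 1 sample. Per the labels' protocols, input was roughly 200 ng RNA and the kit TruSeq v2; this kit keeps no strand information. The submitters' processing notes name the build mm10, featureCounts 1.4.6 of Subread, TopHat2 2.0.14 and Bowtie2 2.2.6. Annotation and strand setting: not given in the sources used here. Separate edgeR 4.0.16 models (R 4.3.3) were used for experiment 1, experiment 2 and lung, with filterByExpr by group, TMM scaling and robust two-sided quasi-likelihood F tests, on 14551, 14314 and 15933 genes and 6, 8 and 4 residual degrees of freedom. Differences between effects were contrasts in experiment 2 or in joint fits of 12 libraries. In simulated counts, each size of change was given to 50 genes with a mean above 1 CPM, and most genes were left unchanged. Far fewer genes were changed there than were called in Het against WT. Of 2-fold changes, 88% were recovered for Het against WT in experiment 2 (14314 genes). For KO against WT (14551 genes) it was 70%, and for lung (15933 genes) 34%. Alternatives were DESeq2 1.42.0, its size factors in edgeR, no low-count filter, a replicate block, the 2 groups alone and each library left out. Exact tests of 3 against 3 libraries cannot go below p = 0.1 and were not used. Genes named were Trp53, Mdm2 and Cdkn1a in 5 comparisons (Het against WT in both tissues, Het-NTD against Het, KO against WT, and KO-NTD against KO), all members past the threshold up to 12, and otherwise the 3 lowest p-values. Other genes, such as those in the description of library orders, levels per kilobase and promoters, were chosen after their values were seen. The members and lists were chosen with earlier results of these data known. GENCODE M21 (GRCm38, the same assembly as mm10) gave coordinates and exon lengths.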

Additional observations from a re-analysis of the deposited data

Results flagged for a closer look

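Tnfrsf10b was singled out because its NTD effect ran in opposite directions in the 2 genotypes of experiment 2. Its groups did not overlap in either genotype. How many of all genes met this rule was not counted, and the interval below is for a gene picked on the same values. The log2 fold change of Tnfrsf10b was -0.22 in Het-NTD against Het and 0.31 in WT-NTD against WT. The difference of -0.53 (95% interval -0.70 to -0.36) had an edgeR adjusted p of 0.259 over 14314 genes. Over the 16 alternatives it lay between -0.58 and -0.48, with adjusted p from 1.9e-04 in DESeq2 to 0.877.

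Cdkn1a was singled out because its Het effect ran in opposite directions in the 2 tissues, again with groups that did not overlap in either. Here too the share of all genes meeting the rule was not counted, and the gene was picked on the values of its interval. The log2 fold change of Cdkn1a was -0.37 in lung and 0.28 in fibroblasts of experiment 2, neither of which passed alone. The difference of -0.65 (95% interval -1.02 to -0.27) had an edgeR adjusted p of 0.0987 over 16364 genes, with adjusted p from 0.0197 in DESeq2 to 0.261 over 16 alternatives.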

How the results depend on the processing

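Of 809 values of named genes recomputed under an alternative, 703 kept their direction and their side of the threshold, 71 lost the call, 22 gained one and 13 changed sign. The sign changes were all of genes that did not pass. Trp53 in KO against WT turned to -0.0152 without WT replicate 3 and -0.0332 without KO replicate 1. Trp53 in Het against WT turned to -0.0039 under size factors, -0.0028 with no filter, -0.0038 in DESeq2, -6e-04 with 2 groups alone, -0.0261 without WT replicate 2 and -0.0155 without Het replicate 3. In KO-NTD against KO, Mdm2 turned to -0.0129 without KO replicate 2 and -0.0855 without KO replicate 3, and Cdkn1a to -0.1743 without KO replicate 3, -0.0636 without KO-NTD replicate 1 and -0.0444 without KO-NTD replicate 2. With a library left out, Trp53 ranged up to 0.0739 in KO against WT and 0.019 in Het against WT, and in KO-NTD against KO Mdm2 ranged up to 0.3935 and Cdkn1a up to 0.2423. The cause was not tested in any case.

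The number of members called in DESeq2 moved to 3 in KO-NTD against WT (0 in edgeR), 1 in KO-NTD against KO (0), 1 in WT-NTD against WT (0), 1 in the NTD interaction (0), 4 in the lung and fibroblast difference (0) and 6 in the KO and Het difference (0). With 2 groups alone it moved to 1 in KO against WT (3) and 1 in KO-NTD against WT. The number of genes called in DESeq2 moved to 449 in KO against WT (65 in edgeR), 378 in KO-NTD against WT (64), 26 in KO-NTD against KO (1), 23 in Het-NTD against Het (2), 21 in WT-NTD against WT (2), 3 in the interaction (0), 1 in lung (0), 711 in the tissue difference (184) and 717 in the KO and Het difference (47). With 2 groups alone it was 36 in KO against WT, 100 in KO-NTD against WT, 1389 in Het against WT (2362), 20 in Het-NTD against Het and 1 in WT-NTD against WT. With no filter it was 2 in KO-NTD against KO and 5 in WT-NTD against WT. The genes entered in DESeq2 numbered 19015 in experiment 1, 18837 in experiment 2 and 19394 in lung. They numbered 19914 for the tissue difference and 19135 for the KO and Het difference.

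Whether same-numbered libraries of different groups belong together is not stated. Over 30 pairs of same-numbered libraries, deviations correlated from -0.483 in replicate 2 to 0.608 in replicate 3, both of KO and KO-NTD. With the replicate block, members called moved to 2 in Het-NTD against WT-NTD (4 without it), 8 in Het against WT (9) and 2 in KO against WT (3). The calls lost were Gadd45a and Perp, Pmaip1, and Sfn (edgeR adjusted p of 0.0505, 0.0738, 0.0593 and 0.0572). The block moved genes called to 1 in Het-NTD against Het, 4 in WT-NTD against WT, 39 in the tissue difference and 2 in the KO and Het difference.

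With each library left out in turn, members called ranged from 0 to 2 in KO against WT, 3 to 9 in Het against WT, 1 to 5 in Het-NTD against WT-NTD, 0 to 2 in the tissue difference and 0 to 6 in the KO and Het difference, and were 0 in the other 6 comparisons. Genes called ranged from 24 to 142 in KO against WT, 34 to 55 in KO-NTD against WT, 1 to 29 for KO-NTD against KO, 1304 to 2547 in Het against WT, 1 to 3 in Het-NTD against Het, 2 to 119 in WT-NTD against WT, 739 to 1622 in Het-NTD against WT-NTD, 0 to 2 in the interaction, 39 to 546 in the tissue difference and 3 to 1571 in the KO and Het difference. The group left with fewer libraries takes its spread from the others.

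Depth was not equal between genes: Perp rested on 7 to 36 counts in Het fibroblasts, and Ddb2, Gdf15 and Fas were low as well. Simulated counts for lung gave calls for 34% of 2-fold and 6% of 1.5-fold changes (15933 genes). In that setting, smaller differences were thus mostly not called.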
